A study of Mus musculus with 40 samples.

Results

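The 53 genes described here encode subunits of complexes I, III and IV of the mitochondrial respiratory chain that are carried in the nuclear genome. They were chosen by name, as the Nduf, Uqcr and Cox symbols of the deposited gene table, and not by their values: 35 belong to complex I, 8 to complex III and 10 to complex IV, of 37310 gene rows in all. Each of the 53 had an expected count above 0 in every sample used, and each was among the 15630 genes that passed the filter on low values and were tested. Their levels are given as log2 CPM, the log2 of counts scaled to library size (CPM), with TMM scaling and a prior count of 2.

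The samples were RNA libraries from the airways and lungs of young adult female A/J and SWR/J mice whose skin was painted with N-nitrosotris-(2-chloroethyl)urea (NTCU), a carcinogen that gives rise to squamous lesions of the mouse airway, or with the acetone vehicle alone. Of 40 samples, the 25 that passed the quality limit of the study were used. The 7 normal samples came from mice at an NTCU dose of 0, as 3 samples of cells taken by laser capture microdissection (LCM; 1 SWR/J, 2 A/J) and 4 whole lung sections (3 SWR/J, 1 A/J). The 5 mild dysplasia samples were all from SWR/J mice at a total dose of 15 µmol (3 LCM, 2 whole lung). The 13 high-grade samples were 7 LCM samples (4 SWR/J, 3 A/J) and 6 whole lung samples (4 SWR/J, 2 A/J), with total doses of 25 to 50 µmol in SWR/J mice and 14 to 20 µmol in A/J mice; 9 of them were moderate to severe dysplasia, 2 severe dysplasia, 1 carcinoma in situ and 1 squamous cell carcinoma. Dose, grade and strain therefore cannot be told apart in full, and a whole lung section carries the worst grade seen in it, whatever share of it that lesion takes. In 2 samples the labels disagree: mild dysplasia replicate 5 is elsewhere described as normal and normal replicate 7 as mild dysplasia. The labels do not tie samples to animals, so samples of the same mouse cannot be identified and p-values measure only the spread between samples. The titles of mild dysplasia replicates 2 and 5 share a stem, and whether they come from the same mouse is not stated.

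Libraries held between 2667387 and 16534728 expected counts (median, 9075416). The 53 genes took between 0.518% and 2.30% of the counts of a sample, the mean count of a member ran from 249 to 5256, and the lowest expected count of any member in any sample was 26.8. The median transcript integrity number (TIN), a score of how evenly reads cover transcripts that falls as RNA degrades, ran from 21.7 to 75.1 on its scale of 0 to 100. Some libraries carried RNA of neighbouring tissues: genes of the thyroid and parathyroid summed to as much as 45671 CPM in a high-grade sample, and brown adipocyte markers to between 4.2 and 6424 CPM over the high-grade samples.

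Complex I takes electrons from NADH and passes them to ubiquinone, complex III passes them from ubiquinol to cytochrome c, and complex IV passes them from cytochrome c to oxygen. All of these complexes pump protons across the inner mitochondrial membrane, and the gradient drives the ATP synthase, complex V. Each is built from a core that carries the redox centres, encoded in part by mitochondrial DNA, and from many small supernumerary subunits made from nuclear genes. Ndufa4 has a complex I name and is counted with complex I here, but its protein is now known as a subunit of complex IV.

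By group mean the subunits were lowest in mild dysplasia and highest in high-grade samples, and the complexes moved together. To set samples side by side, each gene was centred on its mean over the 25 samples and the median over the subunits of a complex was taken per sample. For complex I these medians were -0.11 ± 0.60 in normal samples (mean ± SD, n = 7), -0.62 ± 0.26 in mild dysplasia (n = 5) and 0.29 ± 0.74 in high-grade samples (n = 13) on the log2 scale. For complex III they were -0.11 ± 0.67, -0.72 ± 0.31 and 0.34 ± 0.78, and for complex IV they were -0.10 ± 0.72, -0.74 ± 0.34 and 0.36 ± 0.81 in the same order. Over all 53 genes the mild dysplasia samples stood at -0.65, -0.40, -0.88, -0.99 and -0.38 (replicates 1 to 5). The normal samples ran from -1.04 through a median of -0.09 to 0.79, and the high-grade samples from -0.86 through 0.29 to 1.40. The 3 groups overlapped: the mild dysplasia samples all lay in the lower part of the range of the normal samples, while the high-grade samples reached above it and none lay below it.

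**Figure D1:**
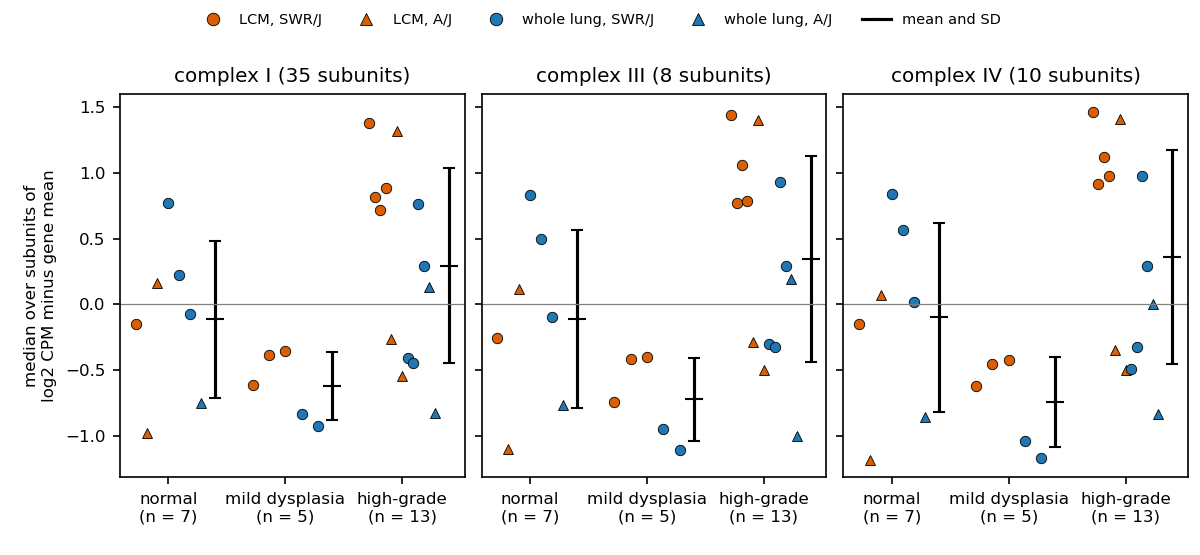
Each point is a sample, placed by the median over the subunits of complex I (35 genes), III (8 genes) or IV (10 genes) of log2 CPM minus the gene mean over 25 samples (y axis), by histology group (x axis), with colour for sample type, shape for strain, and bars for the group mean and SD. In each complex all 5 mild dysplasia samples lie below 0, while the high-grade samples spread over more than 2 log2 units.

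The strains of the normal samples overlapped in these medians over all 53 genes, with a mean of 0.20 in SWR/J and -0.57 in A/J samples. The 4 SWR/J normal samples lay between -0.16 and 0.79 and did not overlap with the 5 mild dysplasia samples of the same strain (-0.99 to -0.38). The 3 A/J normal samples, at -1.04, -0.78 and 0.12, did overlap with them. Among high-grade samples the LCM samples had a mean of 0.64 ± 0.74 (n = 7) and the whole lung samples -0.06 ± 0.60 (n = 6). The 4 high-grade LCM samples of SWR/J mice were all at or above 0.79, whereas the squamous cell carcinoma, an A/J LCM sample, was at -0.50 and the carcinoma in situ, an A/J whole lung sample, at -0.86.

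**Figure D2:**
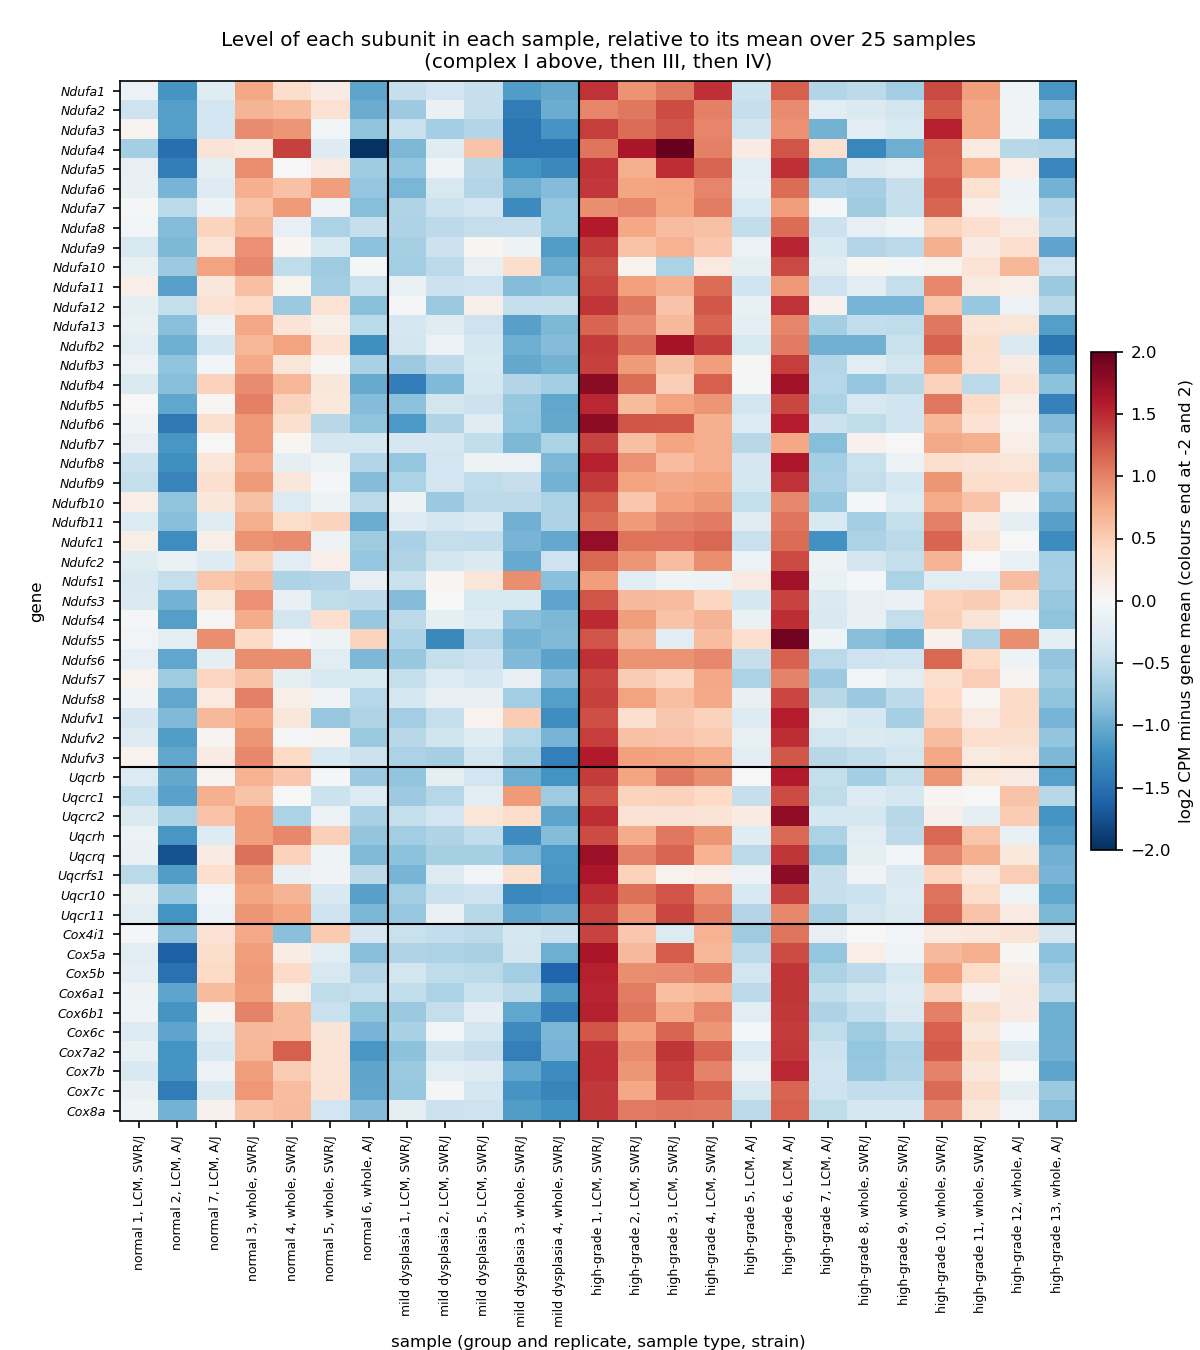
Heat map of the 53 subunits (rows; complex I above, then III, then IV) in the 25 samples (columns, by histology group, sample type and strain), coloured by log2 CPM minus the gene mean, with colours ending at -2 and 2. Most rows of a column share a direction, and the rows least like the rest are Ndufs1, Ndufa10 and Ndufs5.

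Across the samples the subunits varied as a block. Over the 1378 pairs of members the median Pearson correlation across the 25 samples was 0.89 (range, 0.20 to 0.99); these are descriptions, since all genes share the libraries and their scaling. Pairs within complex IV had a median of 0.93, pairs within complex I 0.88 and pairs within complex III 0.83, and pairs between complexes had like values (0.87 for I with III, 0.90 for I with IV and 0.90 for III with IV). Within a sample the medians of the 3 complexes differed by at most 0.40. The members least like the rest were Ndufs1, a core subunit of complex I with iron-sulfur clusters (r = 0.48 with the median of the other members), Ndufa10 (0.63) and Ndufs5 (0.67). Ndufa4 varied most, with an SD of 1.17 over the 25 samples.

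Levels per kilobase of transcript differed widely between the members. Ndufa4 was the highest (1468 CPM per kb, mean over samples), followed by Uqcrh, the hinge protein that docks cytochrome c on complex III (1052 CPM per kb), Cox8a (959 CPM per kb) and Cox6b1 (945 CPM per kb). The lowest were Ndufb4 (29.0 CPM per kb) and Ndufs1 (34.3 CPM per kb). Several members share exon sequence with a neighbouring gene, and the library kit did not mark strand, so these reads cannot be told apart: the neighbour's mean count was 56.7% of the member's for Ndufb6, 43.3% for Cox5a and 29.1% for Ndufb2, and at most 21.5% for the others. The counting method also divides reads that fit several loci, so copies of these genes elsewhere in the genome leave some uncertainty in each level.

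Mild dysplasia was compared with normal tissue to see how the subunits stood at the first graded lesion. In the model with TIN, strain and sample type as covariates, 4 of the 53 members were lower at an adjusted p under 0.05. The members called lower in mild dysplasia were Ndufa3, Ndufa6, Ndufa7 and Uqcrh. Their share was close to that of all genes tested, of which 7.24% were called lower. At an unadjusted p under 0.05, 39 members were lower (24 of 35 in complex I, 5 of 8 in complex III and 10 of 10 in complex IV), where 16.9% of all genes were. The fitted change was negative for 52 of 53 members, with a median of -0.82 on the log2 scale in complex I, -0.90 in complex III and -0.97 in complex IV, against -0.02 over all genes. DESeq2 called 22 members lower (12.7% of all genes). As these are bulk samples, fewer cells rich in mitochondria and less RNA of these genes per cell cannot be told apart.

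Ndufa3, a supernumerary subunit of complex I (NCBIM37/mm9, chr7:3568975-3571765, plus strand), stood at 6.04 to 8.08 log2 CPM in normal samples (median, 7.09; n = 7). In mild dysplasia it stood at 6.70, 6.46, 5.69, 5.96 and 6.55 (replicates 1 to 5), and in high-grade samples at 5.95 to 8.69 (median, 7.91; n = 13). Every mild sample lay below the normal median, and 2 of them lay below all normal samples. The fitted change was -1.22 ± 0.34 (log2, SE; adjusted p = 0.0301).

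Uqcrh, of complex III (chr4:115739570-115747676, minus strand), stood at 7.57 to 9.69 log2 CPM in normal samples (median, 8.63) and at 8.04, 8.14, 7.48, 7.88 and 8.25 in mild dysplasia. High-grade samples ran from 7.64 to 10.04 (median, 9.29). Every mild sample was below the normal median, and replicate 3 was below all normal samples. The change was -1.19 ± 0.38 (adjusted p = 0.0448).

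Ndufa6, a complex I subunit of the LYR protein family (chr15:82180569-82184721, minus strand), ran from 6.58 to 8.34 in normal samples (median, 7.36) and from 6.56 to 8.93 in high-grade samples (median, 7.81). The mild samples stood at 6.60, 7.20, 6.53, 6.65 and 6.92, all below the normal median, and the change was -1.19 ± 0.39 (adjusted p = 0.0476). Ndufa7, also of complex I (chr17:33961536-33975261, plus strand), ran from 6.15 to 7.86 in normal samples (median, 6.93) and from 6.29 to 8.17 in high-grade samples (median, 7.13). Its mild values were 6.40, 6.58, 5.73, 6.24 and 6.62, again below the normal median in each sample, with a change of -0.92 ± 0.30 (adjusted p = 0.0487).

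**Figure D3:**
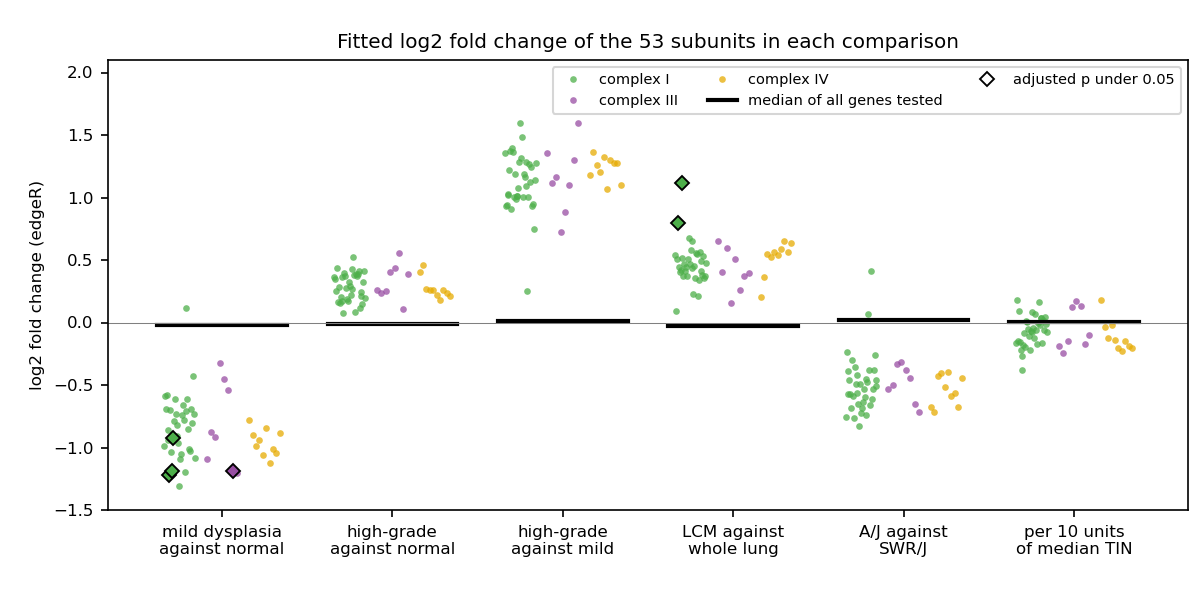
Fitted log2 fold change (y axis, edgeR) of each of the 53 subunits in 6 comparisons (x axis), coloured by complex, with black bars for the median of all 15630 genes tested and outlined diamonds for members with an adjusted p under 0.05. In mild dysplasia against normal 52 of 53 points lie below 0, in high-grade against mild dysplasia and in LCM against whole lung all 53 lie above it.

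Promoters are printed for the called members and for examples of the motif matches, to show the letters before the starts of genes whose levels moved together. A promoter of 250 bases before to 50 bases after the start was at hand in RefSeq (GRCm38.p6, a later build than that of the counts) for 45 of the 53 members. It was searched on both strands for 3 sets of letters known from respiratory chain genes: GCGCATGC, of the NRF1 type, CCGGAAGT, of the ETS type that GABP binds, and AAGATGGC, of the YY1 type. The NRF1-type letters are nearly their own reverse complement, so the longer run GCGCATGCGC matches on both strands. The 100 bases before the start follow for the called members Ndufa6 (chr15:82354292-82354391, minus strand), Uqcrh (chr4:116075071-116075170, minus) and Ndufa7 (chr17:33824472-33824571, plus), and for Ndufa11 (chr17:56717662-56717761, plus) and Uqcr11 (chr10:80406822-80406921, minus) as further examples. Capitals mark the NRF1-type letters in Ndufa6 and Ndufa11 and the ETS-type letters in Uqcrh and Uqcr11, and Ndufa7 holds none of the 3 sets. Uqcr11 also has an NRF1-type match that begins at base -4 relative to the start. It runs past the printed stretch and is not marked.
Ndufa6: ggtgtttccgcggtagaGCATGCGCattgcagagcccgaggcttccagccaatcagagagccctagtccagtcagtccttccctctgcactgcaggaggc
Ndufa11: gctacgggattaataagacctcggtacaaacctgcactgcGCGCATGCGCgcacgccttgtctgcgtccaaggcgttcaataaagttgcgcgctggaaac
Uqcrh: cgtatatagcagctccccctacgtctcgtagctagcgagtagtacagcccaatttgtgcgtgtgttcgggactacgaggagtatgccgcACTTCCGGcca
Uqcr11: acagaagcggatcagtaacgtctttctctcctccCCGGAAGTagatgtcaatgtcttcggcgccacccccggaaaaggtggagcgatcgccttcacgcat
Ndufa7: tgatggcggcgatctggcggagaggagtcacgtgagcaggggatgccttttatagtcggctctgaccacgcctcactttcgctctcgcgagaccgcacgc

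The YY1-type letters lay in the first transcribed bases of 7 members, all of complex I: Ndufa3, Ndufa9, Ndufb8, Ndufc1, Ndufs4, Ndufs6 and Ndufs7. In each of them the letters read forward and began 23 to 39 bases after the start, while over all promoters 30.6% of the YY1-type matches read forward and lay after the start. The letters include ATG, the usual start of translation, and whether they are the start codon was not examined. Of these, 24 bases around the letters (in capitals) follow for Ndufa3, the called member (chr7:3617387-3617410, plus strand), Ndufa9 (chr6:126849100-126849123, minus), Ndufc1 (chr3:51408918-51408941, minus) and Ndufs7 (chr10:80249465-80249488, plus).
Ndufa3: ccaagaacAAGATGGCcgggagta
Ndufa9: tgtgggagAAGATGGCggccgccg
Ndufc1: tgcggaacAAGATGGCgccgtccg
Ndufs7: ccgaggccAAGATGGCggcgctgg

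The NRF1-type letters were in the promoters of 6 of 45 members (13.3%; 3.05% of 27025 genes with a promoter), the ETS-type letters in 4 (8.89%; 4.31% of genes) and the YY1-type letters in 7 (15.6%; 3.19% of genes). Members with and without these letters had like changes in mild dysplasia. The median log2 change was -0.83 with and -0.91 without the NRF1-type letters, -0.88 with and -0.91 without the ETS-type letters, and -0.85 with and -0.91 without the YY1-type letters. A match describes letters in a window and is not a measured binding site.

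The core subunits of complex I include those that carry the flavin and the iron-sulfur clusters. The 4 core subunits named here had fitted changes in mild dysplasia closer to 0 than the median of their complex. For Ndufs8 the gap was slight (-0.80 against -0.82), and the difference was not tested. Ndufs1 (chr1:63190170-63223396, minus strand) was the only member with a positive fitted value, 0.12 ± 0.40 (adjusted p = 0.867). It stood at 5.84 to 7.10 log2 CPM in normal samples (median, 6.14), at 6.01, 6.49, 7.38, 5.61 and 6.70 in mild dysplasia, and at 5.79 to 8.13 in high-grade samples (median, 6.34). Mild replicate 3, a whole lung sample, was above all normal samples. Without that sample the fitted value was -0.18.

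Ndufv1, which holds the flavin and the NADH site, had the same high mild replicate: it stood at 6.47, 6.69, 7.68, 5.92 and 7.25 in mild dysplasia, against 6.29 to 7.94 in normal samples (median, 6.83). Replicate 4 was below all normal samples, and the others lay within their range. Its fitted change was -0.43 ± 0.48. Ndufs3 stood at 6.19, 7.06, 6.76, 5.998 and 6.73 in mild dysplasia, against 6.11 to 7.97 in normal samples (median, 6.76), with a change of -0.61 ± 0.38. Replicate 4 was again below all normal samples. Ndufs8 stood at 6.45, 6.63, 6.11, 5.71 and 6.66, against 5.76 to 7.82 in normal samples (median, 6.73), with a change of -0.80 ± 0.39. All its mild samples were below the normal median, and replicate 4 was below all normal samples. None of these 4 core subunits was called.

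In complex III the large core proteins had the values closest to 0 and the small subunits the lowest. Uqcrc1, a core protein (chr9:108838661-108851685, plus strand), had the change farthest from the median of its complex, -0.32 ± 0.45 (adjusted p = 0.647). Its mild values were 6.76, 6.92, 8.34, 6.78 and 7.28, against 6.41 to 8.20 in normal samples (median, 7.22) and 6.93 to 8.79 in high-grade samples (median, 7.55), so that replicate 3 was again above all normal samples. Uqcrfs1, the Rieske iron-sulfur protein, stood at 6.45, 7.10, 7.70, 6.21 and 7.32 in mild dysplasia and at 6.25 to 8.23 in normal samples (median, 7.22), with a change of -0.54 ± 0.48. The small subunit Uqcrb stood at 6.84, 7.44, 6.65, 6.43 and 7.24, all below the normal median of 7.61 (range, 6.60 to 8.33), with a change of -0.91 ± 0.41. Uqcrq (-1.21 ± 0.45) and Uqcr10 (-1.09 ± 0.37), also small, had changes near that of Uqcrh, and neither was called.

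Complex IV had no called member and the most even values: all 10 changes lay between -1.12 and -0.78. Cox7c (smallest p of the complex) stood at 7.31, 8.03, 6.88, 6.74 and 7.72 in mild dysplasia, against 6.66 to 8.94 in normal samples (median, 7.91) and 7.32 to 9.48 in high-grade samples (median, 8.41). Its change was -1.04 ± 0.38 (adjusted p = 0.0692). Cox4i1, the regulatory subunit that binds ATP, was steady in mild dysplasia, at 8.20, 8.15, 8.29, 8.22 and 8.12, all below the normal median of 8.60 (range, 7.80 to 9.40). Its change was -0.78 ± 0.34 (adjusted p = 0.118).

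Cox5a stood at 7.08, 7.05, 7.31, 6.71 and 7.04 in mild dysplasia against 6.05 to 8.52 in normal samples (median, 7.46). Cox6c stood at 8.10, 8.69, 7.48, 7.84 and 8.40 against 7.69 to 9.40 (median, 8.52), and Cox8a at 8.64, 8.39, 7.71, 7.61 and 8.40 against 7.87 to 9.44 (median, 8.74). All but 1 of these 15 mild values were below the normal median of the gene. The fitted changes were -0.90 ± 0.42, -0.85 ± 0.39 and -0.88 ± 0.35 in the same order.

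Within SWR/J mice alone (4 normal and 5 mild samples, with 8 high-grade samples in the same fit), where strain is not part of the contrast, 20 members were called lower in mild dysplasia (13 of complex I, 3 of complex III and 4 of complex IV), with 6.62% of all genes called lower. The fitted value was negative for all 53, with medians of -1.03, -1.09 and -1.14 in complexes I, III and IV. Ndufa3 (-1.36 ± 0.32, adjusted p = 0.0296) and Uqcrh (-1.37 ± 0.35, adjusted p = 0.0321) had the smallest p-values. All 5 mild samples lay below all 4 SWR/J normal samples in 20 members (14 of complex I, 3 of complex III and 3 of complex IV), where this held for 5.69% of all genes. Against all 7 normal samples this held for 1 member, Ndufs5, and for 0.793% of all genes. Ndufs5, a small subunit of complex I, stood at 5.27, 4.59, 4.94, 5.003 and 5.31 in mild dysplasia and at 5.70 to 6.81 in normal samples (median, 5.86), with a change of -1.01 ± 0.40 in the fit of all samples (adjusted p = 0.0894).

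These calls rest on few libraries. With each sample left out in turn, between 0 and 19 members were called: 0 without normal replicate 3 or 5 or without any of mild replicates 1 to 4, 15 without normal replicate 2 (A/J), 19 without high-grade replicate 6 (A/J), 7 without high-grade replicate 9 and 1 or 2 without most others, while the median change stayed between -1.03 and -0.64. Without the 2 samples whose labels disagree 0 members were called by edgeR (23 at an unadjusted p under 0.05; median change, -0.85). The share of all genes called in these fits is not given here, so the counts cannot be read as particular to the members.

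Markers of other cells differed in the same contrast. All 6 T cell markers were called lower in mild dysplasia (summed level 18.1 to 178 CPM, against 124 to 4044 CPM in normal samples), as were 3 of the 3 thymocyte markers tested (0 to 1.8 CPM against 9.8 to 1896 CPM, with 1 of the 4 genes of the list at 0 in every mild sample) and 3 of 8 cell cycle genes (90.2 to 194 CPM against 224 to 1082 CPM). Of 6 B cell markers, Blk was called lower (-3.01 ± 0.98, adjusted p = 0.0484; summed level of the list 30.3 to 715 CPM against 26.3 to 1928 CPM). Other lists had positive median changes, with 0 genes called by edgeR in each. The median was 2.33 for 8 cardiac muscle markers (4 at an unadjusted p under 0.05; 46.1 to 2077 CPM against 78.4 to 244 CPM) and 2.29 for 6 alveolar type 2 markers (3 at an unadjusted p under 0.05; 1159 to 31896 CPM against 143 to 18139 CPM). It was 1.64 for 10 ciliated cell markers (6 at an unadjusted p under 0.05; 380 to 1429 CPM against 229 to 1395 CPM) and 1.28 for 6 endothelial markers (3 at an unadjusted p under 0.05; 154 to 1656 CPM against 125 to 1267 CPM). The median level of the T cell, thymocyte, cell cycle and B cell lists had r of 0.07, 0.08, 0.02 and -0.12 with that of the 53 subunits across the 25 samples. For the endothelial, alveolar type 2, ciliated and cardiac lists r was -0.62, -0.54, -0.35 and -0.35. Their part in the result was not tested.

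High-grade samples were compared with mild dysplasia to see how the subunits stood at the later grades. All 53 members had a positive fitted change, with medians of 1.12 in complex I, 1.14 in complex III and 1.27 in complex IV against 0.01 over all genes, but edgeR called 0 of them at an adjusted p under 0.05, where 0.134% of all genes were called higher. At an unadjusted p under 0.05, 48 were higher (32 of 35, 6 of 8 and 10 of 10), against 12.3% of all genes. DESeq2 called 35 members higher, with 5.04% of all genes called. The smallest adjusted p was that of Ndufa3 (1.37 ± 0.37, adjusted p = 0.0688).

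The fitted changes ran from 0.25 to 1.60 in complex I, from 0.72 to 1.60 in complex III and from 1.06 to 1.37 in complex IV. In complex III, Uqcr10 stood at 7.29, 7.53, 6.69, 6.73 and 7.56 log2 CPM in mild dysplasia and at 6.93 to 9.46 in high-grade samples (median, 8.35), a fitted change of 1.35 ± 0.40 (adjusted p = 0.0801). Uqcrq, which lay farthest from the median of its complex, stood at 7.23, 7.38, 7.13, 6.90 and 7.38 against 7.09 to 9.76 (median, 8.74), with a change of 1.60 ± 0.48 (adjusted p = 0.0827). For both, the high-grade median lay above every mild sample although the ranges overlapped.

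In complex IV, Cox4i1 ran from 7.94 to 9.99 in high-grade samples (median, 8.83), with a change of 1.18 ± 0.35 (adjusted p = 0.0819), and Cox6c from 7.77 to 10.14 (median, 8.97), with a change of 1.06 ± 0.42. The ranges of both overlapped with those in mild dysplasia. The smallest change of all members was again that of Ndufs1, 0.25 ± 0.42. In whole lung samples alone the median change over the 53 was 0.48, with 5 members below 0, and in LCM samples alone it was 1.32. Without high-grade replicate 9, an SWR/J whole lung sample, 17 members were called, and without replicate 8 of the same kind 1 was. The share of all genes called in these 2 fits is not given here.

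No member passed the test between high-grade and normal samples. The fitted change was positive for all 53, with medians of 0.28, 0.33 and 0.26 in complexes I, III and IV, but edgeR called 0 (0.0192% of all genes in either direction), 0 had an unadjusted p under 0.05 (9.14% of all genes) and DESeq2 called 0. The smallest p-values were those of Ndufc2 in complex I (0.38 ± 0.25, adjusted p = 0.638), Uqcrfs1 in complex III (0.56 ± 0.38, adjusted p = 0.650) and Cox4i1 in complex IV (0.40 ± 0.28, adjusted p = 0.652). Ndufb8 (0.53 ± 0.34) and Cox5a (0.46 ± 0.32) lay farthest from the medians of their complexes. The direction was not shared by the sample types, as the median was 0.88 in LCM samples alone and -0.24 in whole lung samples alone, where 43 of the 53 values were negative.

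A slope over the rank of grade, from normal to carcinoma, gave no call either (edgeR, 0 of 53 at an adjusted p under 0.05, with 0.262% of all genes called in either direction, 0 at an unadjusted p under 0.05, with 13.7% of all genes, and 0 by DESeq2). The median slope was -0.01 per grade, with 23 values above and 30 below 0. The smallest p-values were those of Ndufc1 (-0.13 ± 0.14 per grade), Uqcrh (-0.07 ± 0.13) and Cox4i1 (0.06 ± 0.12).

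LCM samples were compared with whole lung samples because the former hold cells picked under the microscope and the latter all cells of the section. All 53 members had a higher fitted level in LCM samples (median, 0.45 in complex I, 0.40 in complex III and 0.56 in complex IV; -0.03 over all genes). Of these, 2 were called higher, Ndufa4 and Ndufa12, a smaller share than the 5.65% of all genes. At an unadjusted p under 0.05, 19 were higher, against 13.2% of all genes, and DESeq2 called 9 (10.1% of all genes).

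Ndufa4 (chr6:11850373-11857446, minus strand) ran from 7.52 to 11.71 log2 CPM in LCM samples (median, 9.34; n = 13) and from 7.04 to 10.39 in whole lung samples (median, 8.45; n = 12). Its ranges overlapped widely, and the 3 highest values were in high-grade LCM replicates 3 and 2 and in a whole lung normal sample. The fitted difference was 1.12 ± 0.34 (adjusted p = 0.0307). Ndufa12, a small complex I subunit (chr10:93661700-93684188, plus strand), ran from 4.52 to 6.71 in LCM samples (median, 5.36) and from 4.34 to 5.82 in whole lung samples (median, 4.75), with a difference of 0.80 ± 0.25 (adjusted p = 0.0360). The ranges overlapped, with the LCM samples reaching higher.

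Uqcr10 (0.65 ± 0.24, adjusted p = 0.0678) and Cox8a (0.64 ± 0.22, adjusted p = 0.0526) had the smallest p-values of complexes III and IV, and Cox4i1, at 0.21 ± 0.22, lay farthest from the median of complex IV. The LCM calls ended without the 2 samples whose labels disagree and in SWR/J samples alone (0 members each; 8 and 18 at an unadjusted p under 0.05). With each sample left out, between 0 and 7 members were called, with 0 without normal replicate 6 or 7, mild replicate 5 or high-grade replicate 2, 9 or 13. Markers of other cells of the lung stood lower in LCM samples, with 6 of 6 endothelial, 4 of 6 B cell, 3 of 6 macrophage and 3 of 6 alveolar type 2 markers called lower. Of all 15630 genes tested, 1396 were called lower. By contrast, 4 of 10 ciliated, 2 of 6 club cell and 1 of 6 basal cell markers were called higher. The basal cell markers had a median change of 1.39, with 5 at an unadjusted p under 0.05. Their part in the result was not tested.

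The effect of high-grade histology was also compared between the sample types by an interaction term. It was positive for all 53 members (median, 0.99), which is a larger high-grade effect in LCM samples, but edgeR called 0 of them, and 0% of all genes (smallest adjusted p of a member, 0.666). At an unadjusted p under 0.05, 12 members were positive (6 of 35 in complex I, 2 of 8 in complex III and 4 of 10 in complex IV), against 4.76% of all genes. Ndufa4 had the largest value, 1.58, and in complex IV Cox7a2 had 1.49. The difference between the sample types is therefore not shown by the test over all genes. DESeq2 was not run on this term.

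A/J samples had lower fitted levels than SWR/J samples in 51 of 53 members (median, -0.53 in complex I, -0.47 in complex III and -0.54 in complex IV). No member was called by edgeR (0.659% of all genes called lower), 4 were lower at an unadjusted p under 0.05 (7.68% of all genes), and DESeq2 called 0. Ndufb2 had the smallest p of complex I (-0.83 ± 0.37, adjusted p = 0.249), and Ndufs5 went the other way (0.41 ± 0.36). Uqcrh (-0.66 ± 0.35) had the smallest p of complex III and Cox4i1 (-0.68 ± 0.32) that of complex IV. Uqcrq (-0.72 ± 0.41) and Cox5a (-0.72 ± 0.39) lay farthest from the medians of their complexes. There was no A/J sample of mild dysplasia, and the median TIN was at least 53.7 in every A/J sample, so strain is tied to both. The interaction of high-grade histology with strain called 0 members (0% of all genes), with 0 at an unadjusted p under 0.05 (4.34% of all genes). Its value was positive for 48 members, with a median of 0.56, and DESeq2 was not run on it.

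Subunit levels ran against RNA integrity. Across the 25 samples the median over the 53 members had a Pearson correlation of -0.51 with median TIN (Spearman, -0.55; -0.41 without the 2 samples farthest from the median TIN). Within LCM samples it was -0.42 (n = 13; -0.26 without the 2 farthest) and within whole lung samples -0.72 (n = 12; -0.58 without them). By complex it was -0.49, -0.55 and -0.57 in I, III and IV. These are descriptions over libraries that also differ in grade, strain and depth.

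In the model, with grade, strain and sample type held, the slope per 10 units of TIN had a median of -0.08 over the members. The slopes ran from -0.38 to 0.18, and median TIN ran from 21.7 to 75.1 over the samples. EdgeR called 0 members (4.34% of all genes called lower), 5 were lower at an unadjusted p under 0.05 (13.6% of all genes), and DESeq2 called 0. The slopes of Ndufa4 (-0.38 ± 0.15 per 10 units) and Ndufa3 (-0.27 ± 0.10) were the most negative of those named, while Uqcrc2 (0.17 ± 0.14) and Cox4i1 (0.18 ± 0.11) were positive. In complex III Uqcr11 (-0.24 ± 0.11) and in complex IV Cox8a (-0.20 ± 0.10) had the smallest p-values. Leaving TIN out of the model raised the calls from 4 to 13 in mild dysplasia against normal and from 0 to 43 in high-grade against mild dysplasia, and from 0 to 20 in A/J against SWR/J. The share of all genes called without TIN is not given here, so these counts cannot be read as particular to the members.

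**Figure D4:**
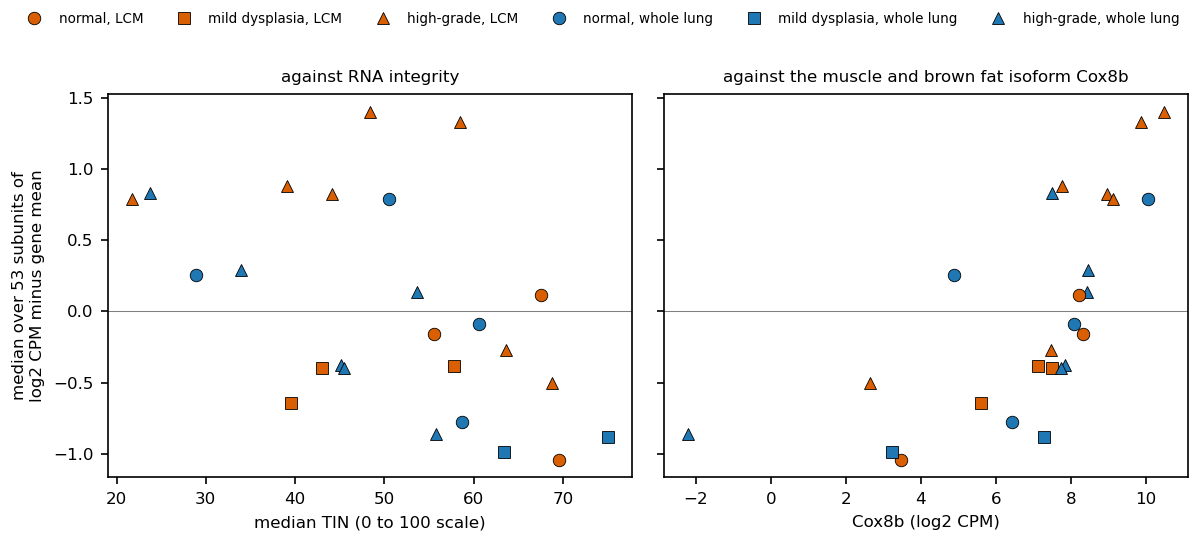
Median over the 53 subunits of log2 CPM minus the gene mean (y axis) in each of 25 samples, against median TIN (left) and against the log2 CPM of Cox8b, the complex IV isoform of muscle and brown fat (right), with colour for sample type and shape for histology. The samples of highest subunit level have high Cox8b and do not have the highest TIN, and the sample with the least Cox8b is among the lowest.

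Transcript length moved with the same contrasts. The members are short, with a median transcript length of 651 nt (350 to 2789.5 nt), against 2264.5 nt over 14403 genes tested. In mild dysplasia against normal, other genes of up to 600 nt had a median change of -0.67 and those over 3000 nt 0.20. The 21 members of up to 600 nt had a median of -1.01, the 14 of 600 to 900 nt -0.78 (other genes, -0.30) and the 9 of 900 to 1300 nt -0.82 (other genes, -0.25). The 5 members of 1300 to 2000 nt had -0.54 (other genes, -0.06) and the 4 of 2000 to 3000 nt -0.64 (other genes, 0.04). In each class the members had a lower median than other genes of like length, and the lowest median of members and of other genes was that of the class of up to 600 nt. Among members the order did not follow length class by class.

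In high-grade against mild dysplasia the median was lower in each longer class, for members and for other genes. Members of up to 600 nt had a median of 1.26 (other genes, 0.76), those of 600 to 900 nt 1.18 (0.31), of 900 to 1300 nt 1.02 (0.27), of 1300 to 2000 nt 0.99 (0.09) and of 2000 to 3000 nt 0.93 (-0.03). Over the members the correlation of log2 length with the fitted change was 0.59 in mild dysplasia against normal and -0.56 in high-grade against mild dysplasia. Ndufs1, the member with the least change in either contrast, has the longest median transcript of the 53. The part of length in the result was not tested.

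**Figure D5:**
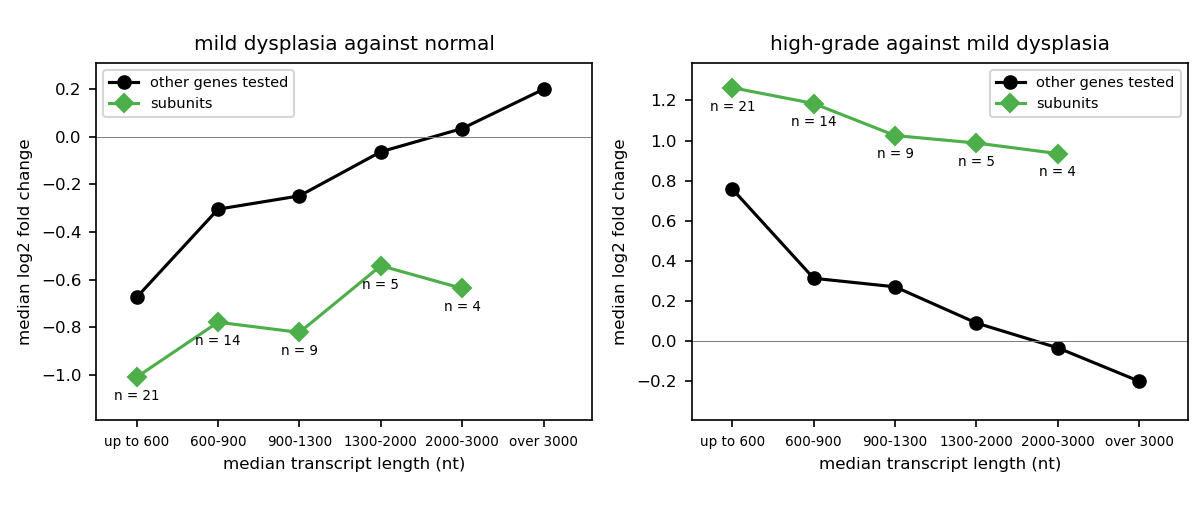
Median log2 fold change (y axis) by class of median transcript length in nt (x axis) for the subunits (green, number of members beside each point) and for the other genes tested (black), in mild dysplasia against normal (left) and high-grade against mild dysplasia (right). In every class that holds members they lie below the other genes on the left and above them on the right.

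The other parts of the respiratory chain were followed by lists. Complex V, the ATP synthase, stood closest to the 53 subunits, with a correlation of 0.96 between the list medians across samples. Of its 17 genes, 2 were called lower in mild dysplasia, where 7.24% of all genes tested were. These were Atp5k (-1.57 ± 0.42) and Atp5e (-1.03 ± 0.34), and the median change of the list was -0.70. Of 34 assembly factors, which build the complexes but are not part of them, 2 were called lower, Ndufaf6 and Uqcc3. This was a smaller share than of all genes. The median change of the list was -0.39, and the median level of the assembly factors followed the subunits with r of 0.95. Among 5 further subunits and partners of these complexes, Cox7a2l, which joins complexes III and IV into supercomplexes, was called lower (-1.12 ± 0.32, adjusted p = 0.032). It was the only gene of the 5 at an unadjusted p under 0.05, and the median change of the list was -0.53.

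Complex II, which feeds electrons from succinate and pumps no protons, had 0 of 4 genes called in mild dysplasia by edgeR (0 at an unadjusted p under 0.05; median, -0.36; r with the subunits, 0.75). Cycs, the cytochrome c that carries electrons between complexes III and IV, had a change of -0.54 ± 0.52 (r = 0.85). Of the 13 subunits encoded in mitochondrial DNA 0 were called and 1 had an unadjusted p under 0.05 (median, -0.31). These took between 4.58% and 28.2% of the CPM of a sample and followed the nuclear subunits less, with r of 0.36. Mt-Nd6, the member of that list on the other strand of the mitochondrial DNA, had a change of 0.63 ± 0.42, and mt-Co1, the catalytic subunit of complex IV, of -0.00 ± 0.54. In LCM against whole lung, 7 of 34 assembly factors and 2 of 17 complex V genes were called higher, where 5.65% of all genes were.

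Some subunits have tissue isoforms. Cox8b and Cox7a1 replace Cox8a and Cox7a2 in muscle and brown fat, and Cox6a2 replaces Cox6a1 in striated muscle. Cox8b ran from -2.23 to 10.49 log2 CPM over the 13 high-grade samples, from 3.47 to 10.06 in normal samples and from 3.23 to 7.49 in mild dysplasia, so that the groups overlapped. Its level followed the median of the 53 members with r of 0.68 (Spearman, 0.79; 0.75 without the 2 samples farthest in Cox8b), 0.82 within LCM samples and 0.56 within whole lung samples (0.35 without the 2 farthest). Cox7a1 had r of 0.68, 0.81 and 0.49 in the same order. Cox6a2 had 0.32, Ucp1, the uncoupling protein that defines brown fat, 0.46, and Acta1 of skeletal muscle 0.48, whereas Myh6 of heart muscle had -0.61, Foxj1 of ciliated cells -0.53 and Sftpc of alveolar type 2 cells -0.50. Without the 2 samples farthest in the gene, these were 0.23, 0.31, 0.39, -0.49, -0.50 and -0.43 in the same order. Within whole lung samples, leaving out the 2 farthest turned Ucp1 from 0.32 to -0.24 and Sftpc from -0.45 to 0.09. The other genes named here kept their sign there.

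Brown adipocyte and skeletal muscle markers were present in all groups. The 6 brown adipocyte markers summed to 71.2 to 4823 CPM in normal samples, 29.6 to 1705 CPM in mild dysplasia and 4.2 to 6424 CPM in high-grade samples, and their median followed that of the subunits with r of 0.52. The 8 skeletal muscle markers summed to 12.1 to 1461 CPM, 28.5 to 901 CPM and 17.1 to 10200 CPM in the same order (r = 0.49). EdgeR called 0 genes of either list in mild dysplasia against normal, and 0 had an unadjusted p under 0.05. The median changes there were -1.26 for the brown adipocyte and -1.88 for the skeletal muscle markers. In high-grade against mild dysplasia these medians were 2.16 and 3.32, again with 0 genes called. There 1 brown adipocyte marker and 0 skeletal muscle markers had an unadjusted p under 0.05. The part of these tissues in the result was not tested. With the level of the brown adipocyte markers as a further covariate, a fit chosen after the data were seen, the median change of the 53 members was -0.71 in mild dysplasia against normal (1 called; 29 at an unadjusted p under 0.05) and 0.87 in high-grade against mild dysplasia (0 called by edgeR; 44 at an unadjusted p under 0.05). Without the libraries at 10 log2 CPM or more of Pth, a parathyroid gene, these medians were -0.88 and 1.15. There 1 and 0 members were called (35 and 46 at an unadjusted p under 0.05). Libraries with less Pth were kept, among them normal replicate 2 at 7.17 log2 CPM.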

How the data were processed

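RNA was sequenced from 40 mouse samples on fresh frozen tissue as short single-end reads, with a kit that does not mark strand. Per the labels and the study's methods, Trimmomatic was used by the authors for trimming, STAR in 2 passes for alignment against mm9, and RSEM for the deposited expected counts of Ensembl genes; the Ensembl release is not given in the sources used here. The deposited table holds expected counts of 37310 genes in 40 columns, each matched to a sample by its name, and no columns of comparisons. The 25 samples whose label says that they passed quality control were used (a limit on the share of uniquely aligned reads), and the other 15 were not analysed here. Median TIN, strain, sample type, grade and dose were taken from the labels.

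Expected counts were rounded to whole numbers. Genes with an interquartile range of log2 CPM above 0 and a sum above 1 were tested (15630). EdgeR 4.0.16 in R 4.3.3 was used for TMM scaling and its quasi-likelihood test, with 3 histology groups, median TIN, strain and sample type in 1 model and Benjamini-Hochberg adjustment over all genes tested; SEs were computed from the fold change and its F statistic. DESeq2 1.42.0 (Wald test) was an alternative. Further alternatives changed the scaling, filter, covariates and samples, including each sample left out in turn. The fits were tested on simulated data. Replicates were compared and no pair of libraries agreed within sampling noise. Replicate numbers follow deposition order. Tables and correlations were made in Python 3.11.15. Gene coordinates and transcript lengths are of NCBIM37 (mm9), and promoter letters of RefSeq on GRCm38.p6.

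The members and lists were chosen with earlier results of these data known. Members named in full were those of the main roles (Ndufs1, Ndufv1, Ndufs3, Ndufs8, Ndufa4, Uqcrc1, Uqcrfs1, Uqcrb, Cox4i1, Cox5a, Cox6c, Cox7c and Cox8a), the called ones and, per comparison and complex, the member of smallest p and the member farthest from the median of its complex. Of other lists the genes of smallest p and any isoform or mitochondrially encoded subunit could be named.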

Additional observations from a re-analysis of the deposited data

Results flagged for a closer look

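The lowest of the 5 mild dysplasia samples stood far from the other 4 in 2 members, in both cases mild dysplasia replicate 4, a whole lung sample of an SWR/J mouse. Ndufv3, a flavoprotein subunit of complex I, was at 5.73 log2 CPM in that sample and between 6.43 and 6.72 in the others. Cox5b, a zinc-binding subunit of complex IV, was at 6.39 log2 CPM there and between 7.28 and 7.61 in the others. The gap passed Dixon's limit in 2 of 112 groups looked at, and chance alone passes it in about 1 of 20. Neither gene was called in mild dysplasia against normal.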

How the results depend on the processing

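No paired analysis was possible because the replicate numbers follow deposition order and the labels do not tie samples to animals. In mild dysplasia against normal, where 4 members were called, DESeq2 called 22, the fit without TIN 13, SWR/J samples alone 20 and the fit with no filter 1. The fit without strain and sample type, LCM samples alone, whole lung samples alone and the fit without the 2 samples of conflicting labels called 0 each (edgeR; 5, 0, 0 and 23 at an unadjusted p under 0.05). The 2 fits chosen after the data were seen called 1 each. These were the fit with brown adipocyte markers as a covariate and that without libraries at 10 log2 CPM or more of Pth. Without a mild replicate 0 to 1, without a normal replicate 0 to 15 and without a high-grade replicate 1 to 19 were called. In high-grade against mild dysplasia (0 called) DESeq2 called 35 and the fit without TIN 43, and leaving out single samples gave 0 to 17. In LCM against whole lung (2 called) DESeq2 called 9, RLE scaling 4, the fit without TIN 1, SWR/J alone 0, the fit without conflicting labels 0 and the brown adipocyte covariate 1, with 0 to 7 when single samples were left out. In A/J against SWR/J the fit without TIN called 20. For the TIN slope the fit without strain and sample type called 13 and the brown adipocyte covariate 1, with 0 to 1 when single samples were left out. High-grade against normal and the rank of grade had 0 members called by each fit run. The interactions were fitted in 1 way only. For most of these fits, including those without TIN or without single samples, the share of all genes called is not given. Their counts describe the fits and cannot be read as particular to the members.

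The sign turned in few named members. Ndufs1 in mild dysplasia against normal (0.12) was -0.035 in whole lung alone, -0.048 in SWR/J alone and between -0.18 (without mild dysplasia replicate 3) and 0.45 when single samples were left out, and in high-grade against mild dysplasia (0.25) it was -0.075 without TIN and -0.12 with the brown adipocyte covariate. Uqcrc1 in mild dysplasia against normal (-0.32) was 0.21 in whole lung alone. The cause was not tested, except that the fits on fewer samples have less power by construction. Complex medians by grade moved by less than the spread between replicates with a prior count of 0.25 and without TMM.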

Other observations

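Genes around the respiratory chain that the comparisons above did not cover are given here as values. Of 12 regulators of mitochondrial gene expression, Nrf1, the factor whose letters were searched in the promoters, was called lower in mild dysplasia against normal. It stood at 4.35 to 5.54 log2 CPM in normal samples (median, 5.18), at 3.46 to 4.49 in mild dysplasia (median, 4.17) and at 3.86 to 5.29 in high-grade samples (median, 4.41), with a change of -1.17 ± 0.25 (adjusted p = 0.014). The normal and mild ranges overlapped only slightly. Ppargc1a, the coactivator of mitochondrial biogenesis, was not called (0.68 ± 0.45). The median of the 12 regulators followed that of the 53 subunits with r of 0.29 over the 25 samples, as a description. Of 16 enzymes of the citrate cycle, which makes the NADH that complex I uses, edgeR called 0 in mild dysplasia against normal (0 at an unadjusted p under 0.05), with a median change of -0.21 and r of 0.59 with the subunits. Cox4i2, the isoform of Cox4i1 known from lung and low oxygen, was lower in LCM than in whole lung samples by -2.75 ± 0.49 on the log2 scale (adjusted p = 0.002), while Cox4i1 had 0.21 ± 0.22 and was not called.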
